A study of Mus musculus with 6 samples.

Results

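Named antisense genes are transcripts that the mouse nomenclature calls after the gene on the other strand, with the suffix os for opposite strand. The count table held 293 such rows whose parent symbol was also a row, chosen by symbol alone, and they belonged to 251 parents. Together these 544 rows were a small part of the 48377 listed and held 2.38% of all counts. A single antisense row was listed for 220 parents, 2 for 22, 3 for 8, and Sox5 had more.

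Antisense transcripts are copied from the strand opposite a coding gene. Some start next to the parent's promoter and run away from it, some run into its end, and some lie within its body. Well-studied examples quieten or support the gene on the other strand, and Dnm3os carries microRNAs, but for most named antisense genes no function is settled. Because both transcripts share bases as reverse complements, a read can be placed under the right name only if the strand it came from is known.

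The data were 6 poly(A)-selected, stranded RNA libraries of skin from db/db mice, which lack a working leptin receptor, become obese and diabetic and heal slowly. Both groups carried this background. In 3 libraries, labelled DMSO, the skin was labelled as given vehicle over 16 days. In the other 3, labelled PLX4032, it was labelled as given vemurafenib, a BRAF kinase inhibitor listed at 1 uM, over the same 16 days. The labels give neither an age nor the route, and they do not say that libraries came from separate animals, so p-values measure the spread between libraries, which may be technical in part.

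Counted totals were low, from 14189 to 78434 per library, so that 1 count was worth between 12.7 and 70.5 CPM, which are counts scaled to a common library total. A row at 0 in all 6 libraries can lie at up to 13.4 CPM, from 3 counts over the 223495 counts of the series, by counting error alone. Skin markers were present: 6 fibroblast genes had 7216 counts and 6 keratinocyte genes 788, with counts under each of them. The fibroblast genes together ranged from 27148 to 53076 CPM with vehicle and from 16243 to 35295 CPM with vemurafenib, and the part of this range in the values that follow was not tested. In bulk skin, fewer cells of a type and less RNA per cell cannot be told apart.

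The strand problem can be seen in the sequences themselves. Shown here are 60 bases of coding exon from the 4 pairs with most counts in which the antisense row exceeded its parent and an antisense exon lay opposite at least that much coding sequence. They come from the GENCODE M21 transcripts on mm10 and run 5′ to 3′, and the capitals mark the same 12 base pairs on either strand.
Uckl1, minus strand, chr2:181581882-181581941: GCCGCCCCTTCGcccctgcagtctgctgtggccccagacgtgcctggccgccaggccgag
Uckl1os, plus strand, the same bases: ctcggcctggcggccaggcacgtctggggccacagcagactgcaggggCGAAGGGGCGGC
Kdm6b, minus strand, chr11:69401559-69401618: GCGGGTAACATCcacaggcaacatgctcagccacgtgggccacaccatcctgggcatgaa
Kdm6bos, plus strand, the same bases: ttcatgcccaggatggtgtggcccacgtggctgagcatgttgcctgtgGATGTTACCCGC
Ube4b, minus strand, chr4:149357694-149357753: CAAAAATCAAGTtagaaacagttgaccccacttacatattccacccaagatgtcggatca
Ube4bos1, plus strand, the same bases: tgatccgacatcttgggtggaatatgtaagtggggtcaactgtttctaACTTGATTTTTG
Itpr3, plus strand, chr17:27099699-27099758: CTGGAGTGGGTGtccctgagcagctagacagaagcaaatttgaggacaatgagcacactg
Itpr3os, minus strand, the same bases: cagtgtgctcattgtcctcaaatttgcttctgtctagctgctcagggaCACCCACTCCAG
Of the 16 pairs looked at, 12 had such a stretch. The strand setting of the counting is not given in the sources used here, so a count under an antisense name cannot be told apart from parent RNA over shared bases, and the part of the setting in the results was not tested.

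Antisense names held more counts than the names of their parents. Over the 6 libraries the 293 antisense rows had 3203 counts and the 251 parents 2116. A count was present for 177 antisense rows (60.4%) and 169 parents (67.3%), against 34.5% of all rows of the table, while 60 pairs had none in either row. Of the 76 antisense rows with at least 10 counts, 67 exceeded their parent, and for 7 of these the parent was at 0. Picking rows by their own count favours that outcome. Of the 24 pairs with at least 60 counts in both rows together, the antisense row was higher in 19 and the parent in 5. The counts were spread over many rows, since the 5 antisense rows with most counts held 18.3% of the antisense total.

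**Figure D1:**
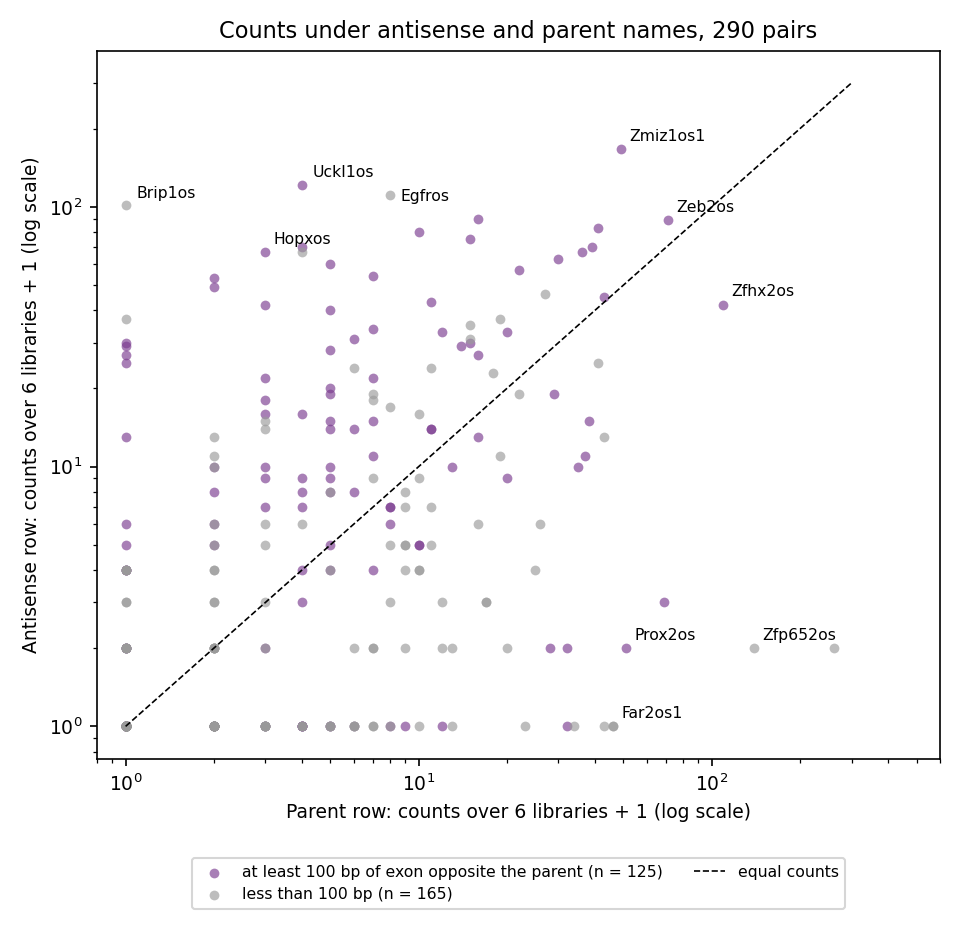
Counts summed over 6 libraries for the antisense row (vertical axis) and the parent row (horizontal axis) of the 290 pairs with a single annotated locus each, plus 1, on log axes. Points above the dashed line have more antisense than parent counts: Uckl1os, Egfros and Brip1os stand far above it with 120, 110 and 101 counts, and Zfp652os far below it with 1.

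The antisense share of the pair counts, with each parent counted once, was 62.0%, 58.4% and 56.2% for vehicle 1, 2 and 3, against 61.6%, 59.5% and 62.1% for vemurafenib 1, 2 and 3. All 6 libraries lay above an equal split, and the groups overlapped. The means were 58.9% ± 2.94 with vehicle and 61.1% ± 1.41 with vemurafenib (SD, n = 3). By counting error alone the Wilson 95% interval was narrowest in vemurafenib 1, from 59.5% to 63.8%, and widest in vehicle 2, from 52.7% to 63.9%. Single pairs varied far more. Of 130 pairs with at least 10 counts, 22 had a share of 90% or more, 17 had 10% or less, and the median was 64.1%.

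**Figure D2:**
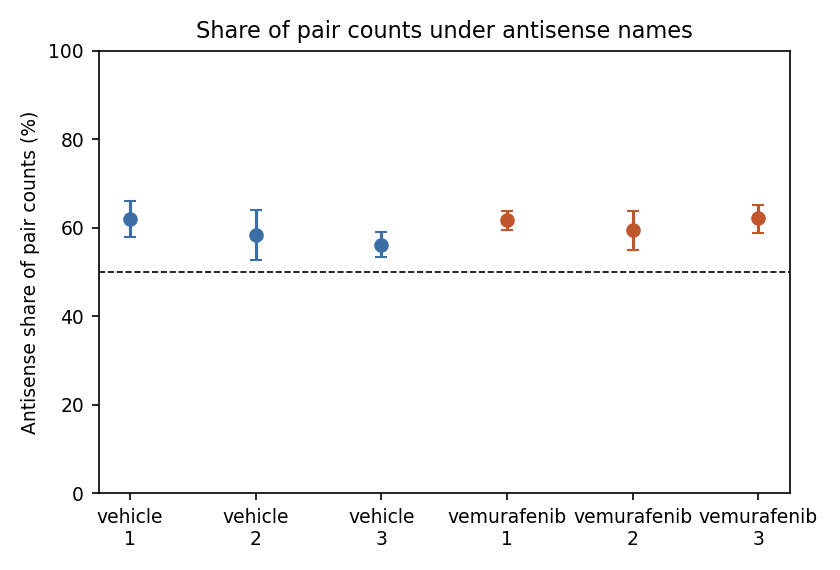
Antisense share of antisense plus parent counts in each library (percent, points) with Wilson 95% intervals (bars), which cover counting error only. The 6 shares lie between 56.2% and 62.1%, above the dashed line at an equal split.

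Per length the difference was larger, as antisense rows are short: the median merged exon length was 1342 bp, against 5002 bp for parents. In counts per kb of exon, antisense rows exceeded parents 4.63, 3.98 and 3.63 times for vehicle 1, 2 and 3, against 4.55, 4.14 and 4.64 times for vemurafenib 1, 2 and 3. The antisense row was the denser of its pair in 106 of the 130 pairs with at least 10 counts. Antisense genes without os names were at least as dense. The 2162 other genes that GENCODE types as antisense had 9.83 counts per kb and 64.2% had a count, against 6.97 per kb and 62.2% for the 251 named ones of that type. Parents, at 1.39 counts per kb, lay close to the 1.46 of 21636 protein-coding genes.

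Antisense rows that face exons of their parent were the denser ones. The 125 rows with at least 100 bp of exon opposite parent exon held 8.93 counts per kb, and 74.4% of them had a count. The 165 rows with less held 3.16 per kb, and 50.3% had a count. On the CPM scale the densities were 42.5, 31.1 and 35.1 CPM per kb with vehicle and 44.6, 38.4 and 39.2 with vemurafenib for the first class. For the second they were 12.4, 14.0 and 14.0 with vehicle and 13.9, 13.3 and 16.4 with vemurafenib. In every library the pooled density was higher in the first class. The ratio was 2.77 ± 0.477 (SD over 6 libraries, between 2.23 and 3.43). Single rows of the 2 classes overlapped, with medians of 3.86 counts per kb in the first and 0.185 in the second.

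**Figure D3:**
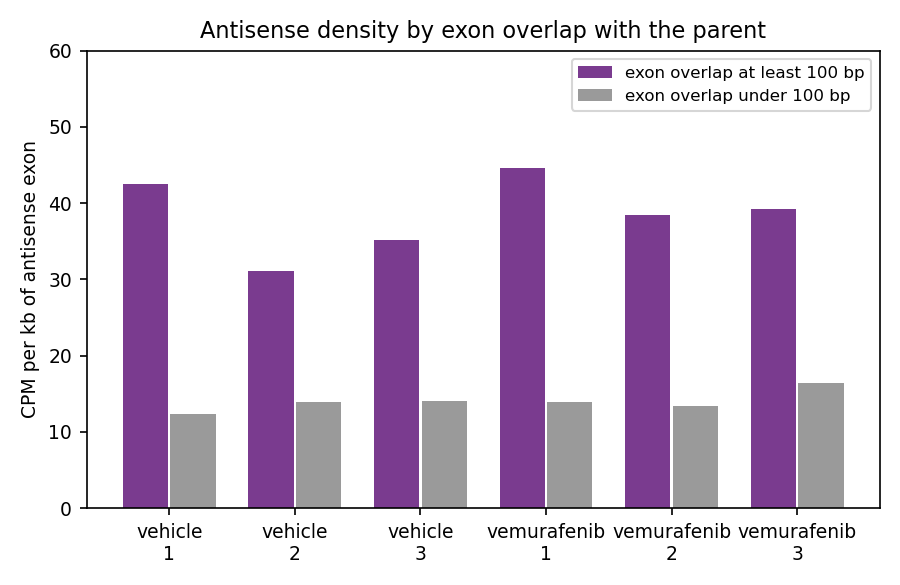
Antisense density in CPM per kb of antisense exon in each library, for the 125 rows with at least 100 bp of exon opposite parent exon and the 165 with less. In each of the 6 libraries the first bar (31.1 to 44.6) is higher than the second (12.4 to 16.4).

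Rows with no exon opposite any gene were not silent. The 63 of them that lie inside their parent, over its introns, held 4.21 counts per kb and 36 had a count, while the 60 that lie outside held 1.30 per kb and 19 had a count. These are pooled values, and the medians of single rows were 0.861 and 0 counts per kb. By arrangement, the 124 rows inside a parent had 8.58 counts per kb. The 38 that meet their parent tail to tail had 5.39, the 8 that span it 5.45 and the 120 that leave it head to head 4.19. Medians of single rows, in this order of the classes, were 3.24, 0.936, 2.83 and 0 counts per kb. Pooled by class, rows inside the parent were denser than head-to-head rows in every library, at 29.4 to 43.8 against 15.2 to 23.0 CPM per kb.

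Among developmental transcription factors, 24 of 47 antisense rows had a count and 10 had at least 10. Zeb2 is a zinc finger repressor that lowers E-cadherin as cells lose epithelial contacts, and Zeb2os (chr2:45110707-45114087) lies inside it with 653 bp over its exons. Zeb2os had 10, 1 and 25 counts for vehicle 1, 2 and 3, against 38, 7 and 7 for vemurafenib 1, 2 and 3. Zeb2 itself had 7, 6 and 18 with vehicle and 32, 3 and 4 with vemurafenib. Both were highest in the deepest library of each group, and both overlapped between the groups. Per kb, Zeb2os had 44.2 counts and Zeb2 3.51.

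Hox genes give cells their position along the body axis, and adult skin keeps such a code. Hoxb3os (chr11:96343072-96354691) had 5, 0 and 9 counts with vehicle and 20, 11 and 17 with vemurafenib, and Hoxb3 had 1, 2 and 8 and then 10, 5 and 3. All 3 vemurafenib libraries had more Hoxb3os counts than any vehicle library, and in CPM the row stood at 205, 0 and 195 against 259, 516 and 453. The groups did not overlap on either scale, but the row did not pass the low-count filter and was not tested. Other untested rows were apart in CPM too, among them Tomm6os, Frmd8os and Egfr, with 30, 12 and 7 counts in all. In the other direction were Map2k3 and Kcnmb4, with 5 and 4 counts in all. At such low totals a few reads set the groups apart. Of all tested genes, 8.81% had groups that did not overlap, and the share over untested rows was not taken. Exons of Hoxb3os face those of Hoxb3 over 2250 bp and those of Hoxb2 over 953 bp, so reads of either cannot be told apart from it. Hoxd3os1 had 52 counts against 1 for Hoxd3, and Hoxb5os had 21 against 2.

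Hopx is a homeodomain protein without DNA binding of its own, known from hair follicle stem cells and differentiating epidermis. Hopxos (chr5:77094532-77102303) had 4, 3 and 3 counts with vehicle and 36, 2 and 18 with vemurafenib, whereas Hopx had 2 counts in all, both in vemurafenib 3. In CPM Hopxos was 146 ± 74.1 with vehicle and 347 ± 219 with vemurafenib (SD, n = 3), with vemurafenib 2 inside the vehicle range. Runx2, the factor that drives bone formation, had 6, 2 and 7 counts and then 20, 5 and 2. Its 3 antisense rows differed: Runx2os1, with 519 bp opposite Runx2 exon, had 44 counts, Runx2os2, with none opposite, had 12, and Runx2os3 was at 0.

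Zfhx2, a homeodomain and zinc finger protein of neurons, went the other way, with 3, 6 and 47 counts with vehicle and 11, 13 and 28 with vemurafenib. Zfhx2os had 5, 1 and 7 and then 16, 1 and 11. Neither row separated the groups. Prox2 had 50 counts and Prox2os 1, and Irx3 had 34 and Irx3os 9. Mecomos, with 13 counts against 2, and Tbx3os1, with 10 against 6, were the others with at least 10 that exceeded their parent. Antisense rows of eye, brain and organ-forming factors were at 0, among them Six3os1, Otx2os1, Raxos1, Pax6os1, Lhx1os, Nkx2-2os, Ptf1aos and Wt1os, and apart from 1 count under Pax6 so were their parents.

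For neuronal genes, 13 of 33 antisense rows had a count, and their density was 1.04 counts per kb, the lowest of the 10 role groups. Of the 23 parents 15 had a count, and of all parents 67.3% had one. Gad1os, Ptprtos, Csmd2os and Nell1os were among those at 0 together with their parents. Those with 10 or more counts were Kcnmb4os1, Kcnmb4os2 and Lrp8os2, with 19, 13 and 12. Kirrel3, an adhesion protein of synapses, was the only parent of the group with 10 or more, with 33 counts and none under Kirrel3os. Grin1 had 9 and Grip1 8.

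In the group called here epidermis and skin matrix, counts lay mostly under antisense names. The group was drawn up with earlier results known, and it includes Anxa11, Dnm3 and Kank4, which are not particular to skin. All 9 antisense rows of this group had a count, 280 in total at 11.6 per kb, against 32 counts under the 9 parents. Pnpla1 makes the acylceramides of the skin barrier. Pnpla1os (chr17:28852055-28859508) had 6, 10 and 4 counts with vehicle and 24, 1 and 14 with vemurafenib, and Pnpla1 had 0 with vehicle and 1, 2 and 1 with vemurafenib. Prss23os, opposite a secreted serine protease over 864 bp, had 1, 1 and 15 and then 41, 5 and 6, and Prss23 had 3 in all.

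Plet1os had 29 counts and Plet1, a surface marker of hair follicle progenitors, had none. In CPM Plet1os was 40.9, 140 and 21.6 with vehicle and 51.9, 329 and 373 with vemurafenib, and vemurafenib 1 lay within the vehicle range. Anxa11os and Galnt6os had 48 and 41 counts against 1 and 2 for their parents. Dnm3os, which carries microRNAs and has no exon opposite Dnm3, had 16 against 7, and Mxra8os had 13 against 10. Has2os and its parent, the hyaluronan synthase gene Has2, had 4 each.

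Growth factor, receptor and signalling parents had 241 counts and their 31 antisense rows 523. Egfr, the epidermal growth factor receptor, had no count with vehicle and 2, 1 and 4 with vemurafenib. Egfros (chr11:16815431-16830702) had 16, 6 and 19 with vehicle and 35, 15 and 19 with vemurafenib. It lies in the body of Egfr and has no exon opposite an exon of Egfr or of any other gene in the annotation. Per kb it held 27.1 counts, against 0.618 for Egfr.

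Jun, the AP-1 subunit, and Junos lie head to head. Junos had 2, 2 and 16 counts with vehicle and 35, 6 and 8 with vemurafenib, and Jun had 3, 1 and 13 and then 13, 2 and 6. Of the 24 pairs with at least 60 counts, Jun was nearest to balance per length, with 16.8 counts per kb for Junos and 11.9 for Jun. Itpr3, a calcium channel of the endoplasmic reticulum, had 3, 2 and 7 counts with vehicle and 7, 3 and 13 with vemurafenib. Itpr3os, the short row inside it shown above, had 8, 4 and 13 and then 18, 3 and 20, or 83.1 per kb. Tnk2os, inside the kinase gene Tnk2, had 1, 4 and 15 and then 11, 3 and 11, and Tnk2 had 1, 4 and 7 and then 8, 2 and 4. The other rows of the group above both 10 counts and their parent were Adap2os, Peak1os, Cdk19os, Map2k3os, Tnfsf13os and Faddos, with 53 down to 15 counts.

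Chromatin and general transcription regulators had the antisense row with most counts. Zmiz1 is a coactivator related to SUMO ligases, and Zmiz1os1 (chr14:25257523-25461128) leaves it head to head. Zmiz1os1 had 26, 7 and 19 counts with vehicle and 79, 14 and 21 with vemurafenib, and Zmiz1 had 8, 6 and 6 and then 16, 4 and 8. Kdm6b removes a repressive methyl mark from histone H3 and takes part in epidermal differentiation. Kdm6bos (chr11:69401513-69402700) had 9, 3 and 17 counts with vehicle and 28, 8 and 17 with vemurafenib, and Kdm6b had 2, 0 and 10 and then 12, 6 and 10. At 97.6 counts per kb Kdm6bos was the densest antisense row of the 24 pairs with at least 60 counts. Ino80dos, Zbtb11os1, Sap30bpos and Rsf1os2 also exceeded their parents, with 32, 32, 30 and 21 counts.

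Trafficking and cytoskeleton genes were led by Nckap5los and Arhgap27os2. Nckap5l binds microtubules. It had 1, 1 and 4 counts with vehicle and 3, 0 and 0 with vemurafenib, and Nckap5los (chr15:99427701-99435313) had 12, 4 and 19 and then 27, 4 and 13. Arhgap27 is a GTPase-activating protein with 3 antisense rows, of which Arhgap27os1 leaves it head to head and the others lie inside it. Arhgap27os2 (chr11:103355701-103361092), with 75.9% of its exon bases opposite Arhgap27 exon, had 8, 2 and 6 counts and then 38, 6 and 14. Arhgap27os3 had 34 counts, Arhgap27os1 29 and Arhgap27 itself 14.

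Rab10 is a small GTPase of vesicle transport, and it had 3, 1 and 7 counts with vehicle and 5, 2 and 3 with vemurafenib. Rab10os had 8, 4 and 11 and then 14, 6 and 13, above Rab10 in every library. Tmcc3os, tail to tail with the membrane protein gene Tmcc3 and with no exon opposite it, had 4, 7 and 11 and then 23, 5 and 16, and Tmcc3 had 3 in all. Ppp1r18, an actin-binding partner of protein phosphatase, had more than its antisense row, with 3, 3 and 6 counts and then 24, 4 and 0 against 0, 1 and 6 and then 12, 2 and 3.

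In metabolism, Uckl1, a uridine kinase relative, had 2 counts in vehicle 3, 1 in vemurafenib 1 and none elsewhere. Uckl1os (chr2:181578480-181585170) had 10, 11 and 33 counts with vehicle and 36, 14 and 16 with vemurafenib. It also faces exons of Zfp512b over 263 bp. Far1os had 36 counts and Far1, a fatty acyl reductase of ether lipid and wax synthesis, had none. Far2, the related enzyme, was the reverse, with 45 counts and none under Far2os1 or Far2os2. Pitpnm2os2, Tomm6os, Abhd11os, Acss2os, Alkbh3os1 and Dhrs13os exceeded their parents, with 12 to 36 counts. The group is a coarse one, and Alkbh3 belongs to it only loosely.

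The ubiquitin ligase gene Ube4b had 0, 1 and 4 counts with vehicle and 4, 3 and 3 with vemurafenib. Ube4bos1 (chr4:149347885-149365277) had 8, 8 and 21 and then 29, 10 and 13, Ube4bos3 had 26 in all, and both lie inside Ube4b. Usp46os2 had 24 counts against 0 and Hectd2os 14 against 4. Man2c1os had 28 against 13, and its parent was grouped here although it is not a gene of the ubiquitin system. Of parents with no role assigned here, Phtf1, Fam219a, Atxn7l1, Bcas3, Ccdc142, Appbp2, Akna, N4bp2, Slfn5, Tmem51, Unc45b and Dtnb had an antisense row of at least 10 counts that exceeded them, Atxn7l1 both its rows, with 10 to 42 counts.

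Brip1 and Brip1os start close together, and counts were found under the antisense name alone. Brip1 is a DNA helicase of the Fanconi anaemia pathway, used in dividing cells, and it had no count in any library. Brip1os (chr11:86201370-86304443) starts 177 bp away on the other strand. It had 11, 6 and 23 counts with vehicle and 36, 9 and 16 with vemurafenib, or 450, 420 and 498 and then 467, 423 and 427 CPM. It was the least variable of the tested rows. Its exons do not face Brip1 but face exons of other genes over 1312 bp, those of Med13 over 800 bp. The promoter window of Brip1 is shown because it holds both starts, from 250 bases before to 50 after the Brip1 start, read along the minus strand from RefSeq on GRCm38.p6, with capitals for the 176 bases between the starts.
Brip1 promoter, minus strand, chr11:86201144-86201443: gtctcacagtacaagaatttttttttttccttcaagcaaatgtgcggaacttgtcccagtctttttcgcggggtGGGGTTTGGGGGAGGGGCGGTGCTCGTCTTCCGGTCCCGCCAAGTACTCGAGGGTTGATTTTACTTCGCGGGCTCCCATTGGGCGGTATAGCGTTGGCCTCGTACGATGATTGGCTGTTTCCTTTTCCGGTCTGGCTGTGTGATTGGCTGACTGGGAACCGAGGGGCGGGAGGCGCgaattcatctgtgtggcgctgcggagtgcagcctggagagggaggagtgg
The motif CCAAT, read on either strand and so also as ATTGG, occurs 3 times in this window, each between the starts. Of the 32851 promoter windows in the table, 37.4% hold it at least once and 3.37% at least as often.

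Parents that carried many counts had a further gene on their other strand more often than parents that did not. Of the 51 parents with at least 10 counts, 16 (31.4%) had 100 bp or more of exon opposite a gene other than their named antisense gene, against 17 (8.59%) of the 198 parents with fewer. Mkrn2, a makorin ubiquitin ligase, led all 544 rows with 27, 22 and 46 counts with vehicle and 97, 20 and 48 with vemurafenib. Zfp652, a zinc finger repressor, had 19, 5 and 20 counts and then 63, 14 and 17, and its exons face those of Abi3, which had 88 counts, over 2913 bp. Zfp652os had 1.

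Zfp335, a zinc finger protein needed in neural progenitors, had 5, 4 and 19 counts and then 18, 6 and 16. Its exons face those of Pcif1, which had 219 counts, over 1107 bp, and Zfp335os had 2 counts. Far2 faces Ergic2 over 837 bp, and Ergic2 had 1 count. Gss, the glutathione synthetase gene, had 31 counts and faces Acss2, which had 6. Ccpg1 had 12 counts and faces Pigb, which had 98. The parents with at least 10 counts and an antisense row at 0 were Far2, Runx2, Kirrel3, Gss, Pmepa1, Ccpg1 and Spag17, in 8 pairs.

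The design asks what vemurafenib changed after 16 days. No antisense or parent row passed the test. Of the 544 rows, 13 were counted deeply enough, 9 antisense rows and 4 parents, and 0 reached an adjusted p under 0.05 in edgeR's quasi-likelihood test with Benjamini-Hochberg adjustment over 477 genes. Across all tested genes 0% were called, and 4.82% had an unadjusted p under 0.05, as against 0 of the 13. DESeq2 and limma-voom called 0 of the 13 as well, with 0 and 1 at an unadjusted p under 0.05. Over all 477 tested genes these 2 methods called 0, with 14 and 40 at an unadjusted p under 0.05. The groups overlapped for all 13, where 8.81% of tested genes had groups that did not. Of the 13, 5 lay above 0 (51.8% of all tested genes), and their median log2 fold change was -0.07 against 0.02 over all.

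Arhgap27os2 had the smallest p. Its mean was 199 ± 111 CPM in the vehicle libraries, against 383 ± 106 CPM in the vemurafenib libraries (SD, n = 3). Its log2 fold change was 1.04 ± 0.52 (SE), with an edgeR adjusted p of 0.946. Zeb2 stood at 365 ± 70.0 and 221 ± 169 CPM, which is -0.51 ± 0.53 on the log2 scale. Zeb2os stood at 340 ± 243 and 336 ± 153 CPM, or -0.14 ± 0.49. Both members of the pair were thus within their error. Zfhx2 was the most variable, with 520 ± 455 and 500 ± 317 CPM, and its log2 fold change of -0.29 was 0.94 without vehicle 3 and 0.28 without vemurafenib 1.

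The log2 fold changes of Nckap5los, Uckl1os and Ube4bos1 were -0.38, -0.31 and -0.17. For Zfp652, Kdm6bos, Zmiz1os1 and Egfros they were 0.31, 0.25, 0.23 and 0.12, and for Brip1os and Mkrn2 -0.07 and -0.03. Each was smaller than its standard error of 0.40 to 0.47, and edgeR adjusted p-values of these 9 rows were between 0.992 and 0.995. Brip1os, at 456 ± 39.1 and 439 ± 24.4 CPM, bounds a change most closely.

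**Figure D4:**
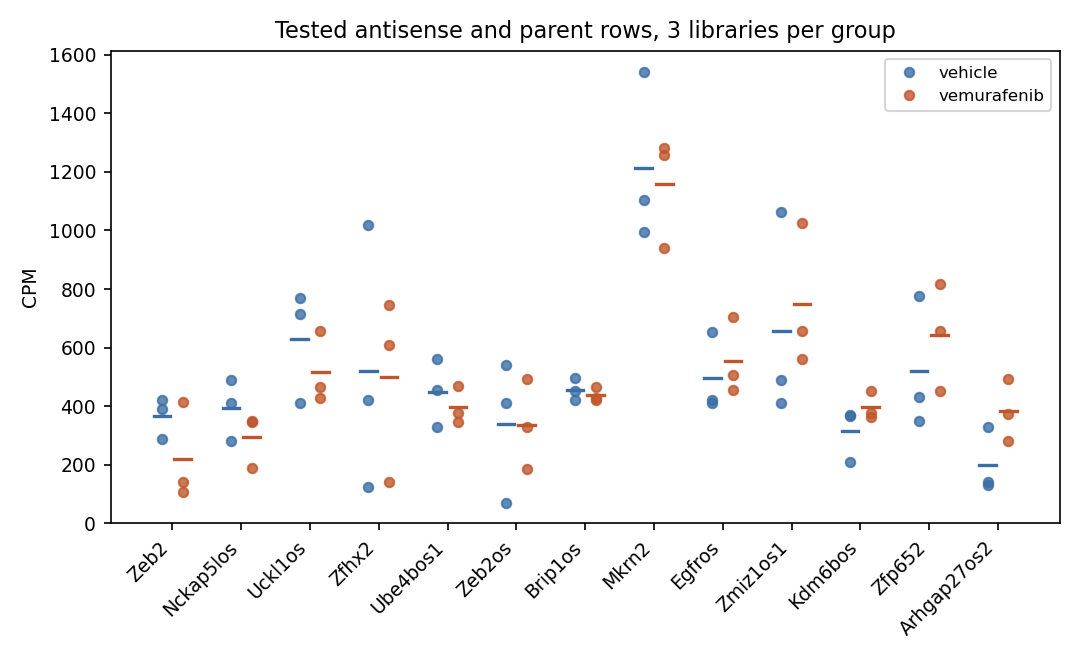
CPM of the 13 tested rows in each vehicle (blue) and vemurafenib (orange) library, with a line at each group mean of 3 libraries, ordered by log2 fold change from Zeb2 to Arhgap27os2. The points of both groups overlap for every row; Brip1os is tight, from 420 to 498 CPM, and Zfhx2 ranges from 123 to 1017 CPM.

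Adding each parent to its antisense rows gives a total that does not depend on which of these names a read was counted under. The total can still depend on the strand setting, since it misses reads counted under other genes or under none. Of the 290 pairs with a single locus each, 129 share no exon bases. The sums brought 19 loci into the test of 483 genes, and 0 passed, as against 0% of all, with 0 at an unadjusted p under 0.05 (4.76% of all). DESeq2 and limma-voom also called 0 of the 19. Above 0 lay 10 of the 19 (52.2% of all), and the median log2 fold change was 0.05, against 0.02 over all genes. The groups were apart for 1 of the 19, and for 8.9% of all genes.

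That locus was Hoxb3, with 246, 140 and 368 CPM for vehicle 1, 2 and 3, against 389, 751 and 533 CPM for vemurafenib 1, 2 and 3. Each vemurafenib library lay above each vehicle library, by little between vehicle 3 and vemurafenib 1. The log2 fold change was 0.92 ± 0.46 (SE, edgeR adjusted p = 0.952), and it was 1.40 without vehicle 3. At the other end the Nckap5l locus stood at 460 ± 96.7 and 308 ± 106 CPM (SD, n = 3), or -0.53 ± 0.43 on the log2 scale. The Kdm6b locus had 415 ± 190 and 632 ± 103 CPM, or 0.47 ± 0.43, and the Arhgap27 locus 0.53 ± 0.46. Kdm6b was at 0.25 without vehicle 2 and 0.86 without vehicle 3, and Arhgap27 at 0.24 without vehicle 3 and 0.32 without vemurafenib 1. The Egfr, Jun and Runx2 loci had 0.27 ± 0.42, 0.28 ± 0.46 and 0.14 ± 0.45. Over fits without 1 library each, Egfr ranged from 0.12 without vemurafenib 2 to 0.49 without vehicle 1, Jun from -0.032 without vehicle 1 to 0.51 without vemurafenib 3, and Runx2 from 0.017 without vehicle 2 to 0.53 without vemurafenib 3. Standard errors of the loci were from 0.40 to 0.52, and they hold both counting error and the spread between libraries.

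**Figure D5:**
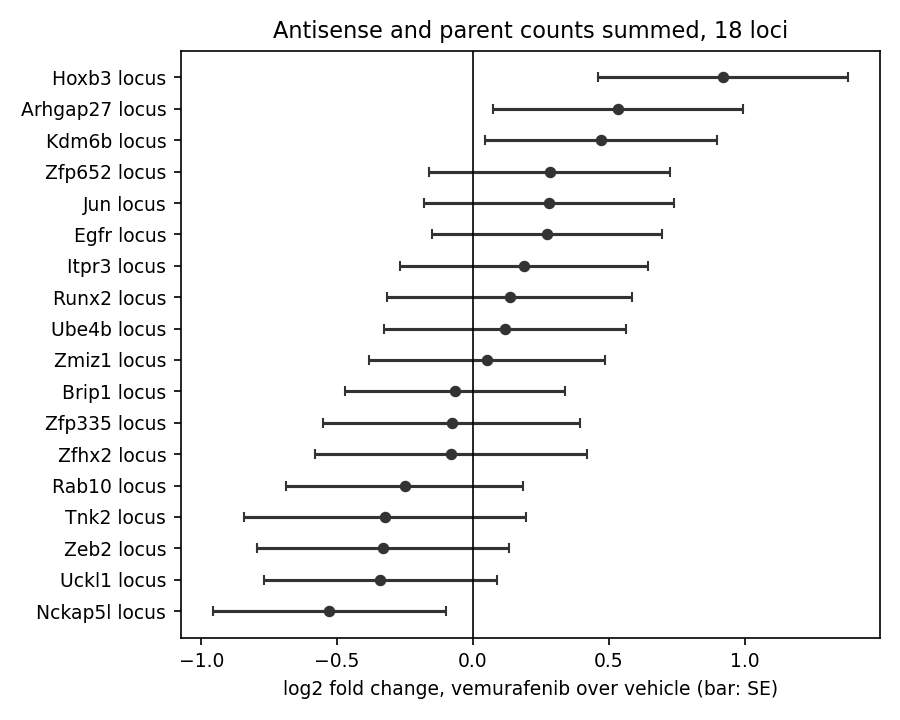
Log2 fold change of vemurafenib over vehicle for 18 of the 19 tested loci, with antisense and parent counts summed (points) and its standard error (bars). The values run from -0.53 (Nckap5l) to 0.92 (Hoxb3), and none passed the test over 483 genes.

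The share of a pair's counts under the antisense name could be compared in the 24 pairs with at least 3 counts in every library. The groups were apart in 2, which is 8.33% of these pairs, and for single rows they were apart in 8.81% of all tested genes. Egfros held 100% in each vehicle library and 94.6%, 93.8% and 82.6% with vemurafenib. Pnpla1os held 100% with vehicle and 96.0%, 33.3% and 93.3% with vemurafenib, the 33.3% resting on 3 counts. Both had p = 0.1 in an exact permutation test, two-sided, which is the smallest that 3 against 3 libraries allow, and the adjusted p over the 24 pairs was 0.738. For Zmiz1os1 the share was 68.8% ± 12.9 with vehicle and 77.8% ± 5.37 with vemurafenib, and for Kdm6bos it was 81.6% ± 18.5 and 63.4% ± 6.44 (SD, n = 3), with overlapping groups.

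A further 18 genes with names of their own were each listed with a partner. The list was drawn up by name and not by strand, so not every gene on it need be an antisense RNA of its partner. Of the 18, 8 had more counts than the partner, 5 fewer, and in 5 both were at 0. Tsix, the RNA opposite the X-inactivation RNA Xist, had the most, with 81, 45 and 105 counts for vehicle against 245, 94 and 134 for vemurafenib. Xist had 3, 1 and 10, and then 13, 4 and 4, below Tsix in every library. Kcnq1ot1, the imprinted RNA that silences its neighbourhood, had 8, 8 and 37 counts with vehicle and 41, 9 and 27 with vemurafenib, and Kcnq1 had 4 in all. Hoxaas3 had 32 counts and Hoxa6 none. Airn, the imprinted RNA opposite Igf2r, had 3, while Igf2r had 56. Nespas had 30 and Gnas 64, and Zfas1 had 1 and Znfx1 23. In counts per kb Tsix and Xist were at 116 and 1.95, Kcnq1ot1 and Kcnq1 at 1.40 and 0.977, and Nespas and Gnas at 9.55 and 5.72. Hoxaas3 was at 11.1 with Hoxa6 at 0, and Airn at 0.834 with Igf2r at 6.02.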

How the data were processed

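The authors deposited whole-number read counts per gene symbol, made with HISAT2 and HTSeq on mm10 per the submitters' processing notes. The sources used here give no version, annotation or strand setting for these tools. A further 1 column matched no sample and was not used. Pairs were found by symbol. Members, role groups and gene lists were chosen with earlier results of these data known.

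Low rows were removed with filterByExpr at its minimum count of 10 and minimum total of 15, and the rest were scaled by TMM and tested with edgeR 4.0.16 (R 4.3.3), with group as the only term and an adjusted p under 0.05 as threshold. Each SE was taken as the absolute log2 fold change divided by the root of the F statistic. A locus sum adds a parent and all its antisense rows. CPM of rows and loci use TMM-adjusted totals, class densities and floors plain totals. Intervals and floors cover counting error only.

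Positions, merged exons and types came from GENCODE M21 (mm10), in which 99.2% of symbols were found. In 3 pairs the antisense symbol had 2 loci, so 290 entered lengths and overlaps. Pairs described in full had at least 60 counts (24 pairs, of which 1 is not reported here). All tested rows, antisense rows of at least 10 counts above their parent, and parents of at least 10 counts with antisense at 0 were also named, and further genes named were chosen after their values were seen. Alternatives were other scalings, filters, DESeq2 1.42.0, limma-voom 3.58.1, the replicate number as a block, other choices of pairs and leaving out each library. Python 3.11.15 was used.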

Additional observations from a re-analysis of the deposited data

How the results depend on the processing

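No antisense row, parent or locus sum was called under any alternative (lowest adjusted p among the 13 rows and 18 loci 0.488, Arhgap27os2 with limma-voom). The count of changed genes over the whole table, 0, was 3 with no filter beyond 1 count, 3 with at least 10 counts in total and 0 to 2 without 1 library, the 2 without vemurafenib 1; none of these was a member, and the cause was not tested. The antisense share of 59.97% (mean of 6 libraries) became 63.2% without the pair with most counts, 67.7% over pairs with no further exon overlap and 57.3% with pairs weighted equally. The ratio of densities of 4.26 became 4.91 and 6.68 in the first 2 of these. Of 217 log2 fold changes of members under 7 other settings, 205 kept their sign. With no filter beyond 1 count, the sign changed for Brip1os (0.15), Mkrn2 (0.21), Ube4bos1 (0.043) and Zeb2os (0.10), and for the loci of Brip1 (0.15), Zfhx2 (0.078) and Zfp335 (0.14). With limma-voom it changed for the loci of Runx2 (-0.13) and Zfhx2 (0.0029). Without 1 library, 6 of 13 rows and 6 of 18 loci changed sign: Brip1os (-0.12 to 0.050), Egfros (-0.062 to 0.34), Mkrn2 (-0.13 to 0.15), Zeb2os (-0.46 to 0.24), Zfhx2 (-0.80 to 0.94) and Zmiz1os1 (-0.088 to 0.75), and the loci of Brip1 (-0.13 to 0.045), Jun (-0.032 to 0.51), Ube4b (-0.19 to 0.33), Zeb2 (-0.98 to 0.059), Zfhx2 (-0.51 to 0.77) and Zmiz1 (-0.25 to 0.43). Some rows and loci passed the low-count filter in fewer of these fits. Libraries with the same number did not deviate together (correlations 0.04, -0.08 and -0.33). At these depths counting error could hide a pairing, so the check cannot exclude one. With the replicate block 0 genes, 0 member rows and 0 loci were called, and the loci of Runx2 (-0.0077), Zfhx2 (0.074) and Zfp335 (0.029) changed sign.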

Other observations

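Of the named antisense rows, 11 were protein-coding genes and not antisense RNAs. They had 24 counts, and their parents 321. Wdr83os had 1 count and Wdr83 27, although they share 539 bp of exon. Cdiptos and Cebpzos were above their parents, with 9 and 7 counts against 2 and 3. The 279 non-coding rows had 3178 counts against 1795 under their parents.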
